A study of Homo sapiens with 6 samples.

Results

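The MYC-MAX-MXD network was examined in wild-type and *FGFR2* knockout keratinocytes. Its 10 genes encode the activators *MYC*, *MYCN* and *MYCL*, the partners *MAX* and *MLX*, and the antagonists *MXI1*, *MXD1*, *MXD3*, *MXD4* and *MNT*. They were chosen by gene symbol, as 10 of 21475 genes, and the set was proposed with the KO minus WT differences of these same libraries in view. The differences of the members are therefore given as a description, with standard errors and without a test. Of the 10 genes, 9 had a mean of at least 0.5 FPKM and were among the 12241 genes of the fit. *MYCN* was not.

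The libraries came from 3 WT and 3 *FGFR2* KO lines of HaCaT, a spontaneously immortalized human keratinocyte line, with 1 library per line. The KO lines carry Cas9-induced mutations from 1 sgRNA against *FGFR2*, which encodes the receptor for FGF7 and FGF10. Each KO line was grown out of a single sorted cell. The study describes its sequenced WT lines as clonally expanded as well. Of all its WT lines, however, it names 1 as the original cell population and the others as clones. Which numbered line is which replicate was not stated. With 3 lines per group, the loss of *FGFR2* and the history of single clones cannot be told apart. The study describes a serum-containing growth medium for HaCaT cells, and the sample titles name no added stimulus. All 6 keratinocyte markers were detected. Of 5 fibroblast markers 4 had a mean under 0.5 FPKM, as had 3 of 4 melanocyte markers and 3 of 4 leukocyte and endothelial markers. The exceptions were *COL1A1*, *PMEL* and *VWF* at means of 11.01, 1.15 and 17.2 FPKM.

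Proteins of the MYC family form heterodimers with MAX, bind E-box sequences in promoters and raise transcription of genes for ribosome production, nucleotide synthesis and cell cycle entry. MXD proteins, MXI1 and MNT compete for MAX and for the same sites, and bring in the SIN3-HDAC corepressor. In the epidermis, MYC is known from proliferating basal cells, and MXD proteins from cells that have left the cell cycle.

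Values are FPKM, fragments normalized for transcript length and depth, and allow levels of different genes to be set side by side within a library. Where 3 values are given for a group, they follow the order of replicates 1, 2 and 3. The targeted gene, *FGFR2*, was at 21.6, 39.75 and 15.0 FPKM in the WT libraries, against 3.04, 2.26 and 4.31 FPKM in the KO libraries. The groups did not overlap, and *FGFR2* had the lowest log2 difference of all genes in the fit. A log2 difference is the KO mean minus the WT mean of log2(FPKM + 0.5), so that low genes are understated. With limma, 0 of 12241 genes (0.0%) had an adjusted p of at most 0.05 with an absolute log2 difference of at least 0.5. The smallest adjusted p was 0.261, and 2065 genes had an unadjusted p of at most 0.05. Without adjustment and with the same minimum difference, 10.2% of the genes were higher and 2.33% were lower in KO. From a count model, the study itself reported differentially expressed genes at an FDR of at most 0.05, with *FGFR2* among them. The count of 0 thus belongs to this fit on FPKM and is not the result of the study. For 18.3% of the genes the lowest KO value exceeded the highest WT value, and for 5.77% the highest KO value was under the lowest WT value. The libraries also differed within groups: the first principal component, which held 49.1% of the variance, ran from -46.3 in WT replicate 2 to 47.7 in KO replicate 3, with WT replicate 3 and KO replicate 2 next to each other at -1.30 and 0.81. The median log2 difference of all tested genes was 0.088, and it was -0.017 after median-of-ratios scaling.

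Of the 9 members in the fit, 0 passed the adjusted threshold. The KO lines were all above the WT lines in 1 member, *MYC*, and all below them in 4 members, *MXI1*, *MXD4*, *MXD3* and *MYCL*. In the other 4 the groups overlapped. The median log2 difference of the 9 was -0.35. These counts stand beside the shares of all genes given above, and nothing is read from them, since the set was proposed from this contrast.

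Within the WT lines, *MXI1* was the most abundant transcript of the 10 members in each of the 3 libraries. Its mean was followed by those of *MNT*, *MXD4*, *MAX*, *MLX*, *MYC*, *MXD1*, *MXD3* and *MYCL*. Neighbours in this order had overlapping ranges over the 3 lines, except that *MAX* lay above *MLX*, *MXD1* above *MXD3*, and *MXD3* above *MYCL* throughout. In the KO lines, *MYC* had the highest mean of the members and their highest value in KO replicates 1 and 3, and *MNT* led them in KO replicate 2. *MXI1* ranked at place 5 of the 10 genes in each KO library. In the order of KO means, *MYC*, *MNT*, *MAX* and *MLX* overlapped as neighbours, *MLX* lay above *MXI1* in range, and *MXI1*, *MXD4*, *MXD1* and *MXD3* again overlapped as neighbours. *MYCL* was the lowest tested member in all 6 libraries.

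*MYC* (ENSG00000136997, chromosome 8 from 127735434 to 127742951, plus strand) encodes the activator of the network in most dividing cells. It had 18.6, 29.25 and 25.2 FPKM in the WT libraries. In the KO libraries it had 44.1, 29.32 and 57.7 FPKM. The groups did not overlap, but KO replicate 2 only just exceeded WT replicate 2. Group means were 24.3 ± 5.40 and 43.7 ± 14.2 FPKM (SD, n = 3 lines each), a log2 difference of 0.80 (standard error 0.27). Without KO replicate 3 the difference was 0.58, and it was 0.59 once chromosome medians had been subtracted in each library. Mitochondrial genes took 27.6%, 21.5% and 22.2% of the FPKM in WT and 15.8%, 23.7% and 11.9% in KO, so that the KO line with the least *MYC* had the largest mitochondrial share and the line with the most *MYC* the smallest. Scaled to nuclear genes alone, the difference of *MYC* was 0.72, and the part of the mitochondrial share in it was otherwise not tested. In bulk RNA, a larger share of cells with a transcript and more transcript per cell cannot be told apart, here and for the other genes.

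The other activators were scarce. *MYCN* (ENSG00000134323, chromosome 2 from 15940550 to 15947007, plus strand), best known from neural tissue and neuroblastoma, was listed at 0.00571 FPKM in WT replicate 1 and at 0 in the other 5 libraries. With an estimated 67600000 to 88000000 fragments per library, a single fragment per kb is worth 0.0114 to 0.0148 FPKM, so that this is the level of single fragments. *MYCL* (ENSG00000116990, chromosome 1 from 39895428 to 39902256, minus strand), the third MYC family gene, had 3.57, 4.71 and 3.73 FPKM in WT and 3.24, 3.01 and 2.24 FPKM in KO. Its KO values all lay below its WT values, with means of 4.001 ± 0.62 and 2.83 ± 0.52 FPKM and a log2 difference of -0.44 (standard error 0.20), which was -0.23 with library weights. *MYC* was thus the most abundant MYC family transcript in every library.

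The obligate partner was nearly constant. *MAX* (ENSG00000125952, chromosome 14 from 65006174 to 65102695, minus strand), whose protein dimerizes with activators and antagonists alike, had 36.9, 37.3 and 35.95 FPKM in WT and 37.0, 41.4 and 39.1 FPKM in KO. The groups overlapped, and the log2 difference was 0.09 (standard error 0.12), with a sign that turned to -0.02 under median-of-ratios scaling and under quantile normalization. Over all 6 libraries the SD of its log2 value was 0.073, and only 1.46% of the tested genes had a smaller one. The exons of *MAX* overlap those of *FNTB* on the opposite strand, and the strand setting of the quantification was not given in the sources used here. *MLX* (ENSG00000108788, chromosome 17 from 42567072 to 42573239, plus strand), the partner of the glucose-sensing factors MondoA and ChREBP, had 32.4, 34.3 and 23.9 FPKM in WT and 29.3, 33.2 and 41.5 FPKM in KO. Its groups overlapped too, with a log2 difference of 0.20 (standard error 0.19). That difference was 0.04 without WT replicate 3, 0.06 without KO replicate 3, 0.31 without KO replicate 1 and 0.004 with library weights. After chromosome medians were removed it was 0.012. *MLX* exons overlap those of *PSMC3IP* on the opposite strand, over 775 bases, so that the same limit holds.

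Among the antagonists, *MXI1* and *MXD4* had the largest differences and *MNT* the smallest. *MXI1* (ENSG00000119950, chromosome 10 from 110207605 to 110287365, plus strand), also named MXD2, encodes a MAX partner that recruits SIN3. It had 57.0, 68.0 and 42.95 FPKM in the WT libraries. In the KO libraries it had 25.6, 25.5 and 19.4 FPKM, and the highest of these lay far below the lowest WT value. The means were 56.0 ± 12.6 and 23.5 ± 3.54 FPKM (SD, n = 3), so that the KO mean was 42.0% of the WT mean and the log2 difference -1.22 (standard error 0.20). It ranked at place 94 from the lowest of the 12241 genes. Leaving out any 1 line kept it between -1.40 and -1.07.

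*MXD4* (ENSG00000123933, chromosome 4 from 2247432 to 2262109, minus strand), an antagonist found in resting and differentiating cells, had 35.5, 53.6 and 31.7 FPKM in WT and 21.0, 25.4 and 13.6 FPKM in KO. The KO lines again lay below the WT lines without overlap. The group means were 40.3 ± 11.7 and 20.04 ± 5.97 FPKM, the KO mean was 49.7% of the WT mean, and the log2 difference was -0.997 (standard error 0.28). Across the lines left out in turn it stayed between -1.19 and -0.75.

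*MXD3* (ENSG00000213347, chromosome 5 from 177301461 to 177312757, minus strand), the MXD gene that is known from S phase, was tightly grouped in WT at 13.1, 13.3 and 13.5 FPKM and had 11.2, 11.5 and 8.51 FPKM in KO. Its KO values lay below its WT values, with a log2 difference of -0.35 (standard error 0.16) that was -0.22 without KO replicate 3. Its exons overlap those of *RAB24* on the same strand and *PRELID1* on the opposite strand, over 926 and 1148 bases, and reads of these genes may be split between them. *MXD1* (ENSG00000059728, chromosome 2 from 69897688 to 69942945, plus strand), which encodes the MAD1 protein of differentiating keratinocytes, had 20.7, 18.95 and 21.7 FPKM in WT and 18.5, 19.7 and 8.87 FPKM in KO. The groups overlapped, and KO replicate 3 alone stood apart. Its log2 difference of -0.45 (standard error 0.29) became -0.10 without that line and -0.29 with library weights. *MXD1* exons overlap those of *SNRNP27* on the same strand, over 237 bases.

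*MNT* (ENSG00000070444, chromosome 17 from 2384073 to 2401104, minus strand), the broadly expressed antagonist, had 47.2, 42.3 and 35.3 FPKM in WT and 41.75, 49.4 and 35.9 FPKM in KO. The groups overlapped almost fully, with means of 41.6 ± 5.97 and 42.3 ± 6.77 FPKM and a log2 difference of 0.02 (standard error 0.17). Its sign was opposite in 7 of 19 alternative analyses, with -0.16 after chromosome medians were removed. *MNT* exons overlap those of a long noncoding RNA gene on the opposite strand, over 1065 bases.

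The balance of *MYC* to its antagonists was then written for each library as *MYC* over the sum of *MXI1*, *MXD1*, *MXD3*, *MXD4* and *MNT*. The sum was 173.5, 196.1 and 145.2 FPKM in WT and 118.0, 131.6 and 86.3 FPKM in KO. *MYC* amounted to 10.7%, 14.9% and 17.4% of it in WT and to 37.3%, 22.3% and 66.9% in KO. The groups did not overlap, and KO replicate 2 was the KO line nearest to WT. On the log2 scale the ratio was -2.83 ± 0.36 in WT and -1.39 ± 0.79 in KO (SD, n = 3), a difference of 1.44 that was 1.22 with *MXI1* left out of the sum. It was 1.04 without KO replicate 3 and 1.83 without KO replicate 2. As transcripts, *MYC* was at 0.325, 0.43 and 0.587 of *MXI1* in WT and at 1.72, 1.15 and 2.97 of it in KO, so that the order of these genes was reversed in every KO library. *MXI1* relative to *MAX* was 1.55, 1.82 and 1.19 in WT and 0.693, 0.616 and 0.497 in KO.

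The make-up of the antagonist pool differed as well. *MXI1* supplied 32.4 ± 2.58% of it in WT and 21.2 ± 1.62% in KO lines, and *MXD4* 23.2 ± 3.64% and 17.6 ± 1.78%. *MNT*, with like levels in both groups, supplied 24.4 ± 2.82% in WT and 38.2 ± 3.14% in KO and was the largest part in each KO library. The shares of *MXD1* and *MXD3* were between 6.77% and 15.6% in all libraries. These shares add up to a whole, so that a lower share of some genes raises the share of the rest.

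Promoters of the members were searched for the site that the network proteins bind, and those that hold it are shown. Windows of 300 bases, from 250 before to 50 after the annotated start, came from RefSeq on GRCh38.p14 and were present for 9 of the 10 members; *MYC* had none. The canonical E-box CACGTG, which reads the same on both strands, stood in the windows of 3 of these 9 genes, *MXD4*, *MNT* and *MLX*. Among all 35116 windows 7.26% held it, and 12.5% of 9809 tested genes with a window had at least 1 such window. Below, each stretch runs in the direction of the gene, with the E-box in capitals. Counted from the annotated start, it begins at base -238 in *MXD4* (chr4:2262312-2262359, minus strand), at -193 in *MNT* (chr17:2401218-2401283, minus strand) and at -50 in *MLX* (chr17:42567020-42567085, plus strand).
MXD4: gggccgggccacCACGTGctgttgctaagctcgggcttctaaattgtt
MNT: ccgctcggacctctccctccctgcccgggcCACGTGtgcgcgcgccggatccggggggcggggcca
MLX: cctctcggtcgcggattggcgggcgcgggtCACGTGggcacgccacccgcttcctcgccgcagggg
The genes with this motif differed in their levels: *MXD4* was lower in KO, whereas *MNT* and *MLX* overlapped between the groups.

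The forkhead motif TGTTTAC, searched on both strands and free of overlap with the E-box, was found in 1 of the 9 members, *MXI1*, in 3.47% of the tested genes with a window and in 3.42% of all windows. *MXI1* is a known FOXO target and has 3 windows, for 3 annotated starts, of which 2 held the motif. The upstream copy is shown here with the motif in capitals, from base -151 to -145 of its start (chr10:110210050-110210116, plus strand).
MXI1: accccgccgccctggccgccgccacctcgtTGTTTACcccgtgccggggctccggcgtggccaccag
The E-box variant CACGCG was found in *MXD3* and in another window of *MXI1*, which is 22.2% of the members with a window and equals the 22.2% of the tested genes (11.4% of all windows). The ETS motif CCGGAAG was found in *MAX*, 11.1% of the members with a window against 23.3% of the tested genes (10.3% of all windows). Both were searched on both strands. A match is a stretch of letters and not a measured binding site.

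Since *MXI1* lies on chromosome 10, as *FGFR2* does, 11.4 Mb away, its neighbours were read beside it. Set against the median of its library, chromosome 10 with its 463 tested genes was at -0.43 in KO replicate 1, -0.16 in KO replicate 2 and -0.19 in KO replicate 3, and it lay between -0.24 and 0.20 in WT. The 10 nearest tested genes on either side of *MXI1*, spread over 9.57 Mb, had a median log2 difference of -0.18. Of these 20 genes 17 were below 0, whereas 60.6% of all tested genes were positive. In 4 of the 20 all KO values lay below all WT values, beside 5.77% of all genes. *MXI1* lay at -1.09, -1.09 and -1.48 from the WT mean in the 3 KO libraries, where the medians of its neighbours were -0.32, -0.12 and -0.16. *MXI1* thus lay further below the WT mean than the median of these neighbours in each KO line. Its difference was -1.07 after the chromosome medians were removed. The neighbour medians, unlike the chromosome values, were not set against the median of the library. Some neighbours were distant, with *SH3PXD2A* to *ITPRIP* at -6.35 to -5.87 Mb. The nearer ones, from *XPNPEP1* to *SHOC2*, were between -0.62 (*ADD3*) and -0.01 (*SMC3*), apart from 1 given below. The part of the region in the difference of *MXI1* was not tested. Of the 463 genes, 6 had a lower difference. Among the 20 neighbours this was *PDCD4*, at -1.33, which was named after its value was seen. Copy number was not measured here.

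*MXD4* lies 0.469 Mb from *FGFR3*, and its surroundings were not low. Its 20 neighbours had a median log2 difference of 0.22, none of them was below *MXD4*, and 4 of the 412 tested genes of chromosome 4 were. The 20 neighbours of *MYC* had a median of 0.14, and all 20 lay below *MYC*.

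Further genes of the network and of its machinery were taken from lists written by hand with earlier results of these data known, so that their counts are no independent evidence of a direction. The genes outside the members were part of the whole fit, and 0 genes of any list passed the adjusted threshold. *MLXIP*, which encodes MondoA, had 62.7, 80.3 and 48.7 FPKM in WT and 36.8, 50.85 and 36.25 FPKM in KO. Its groups overlapped, because KO replicate 2 exceeded WT replicate 3, and its log2 difference was -0.61 (standard error 0.22, limma adjusted p = 0.261). *MLXIPL*, which encodes ChREBP, was between 0.723 and 2.22 FPKM and overlapped between groups, with a log2 difference of 0.20 (standard error 0.38). *MGA*, whose product pairs with MAX in a repressive Polycomb complex, overlapped as well, with a difference of 0.16 (standard error 0.17). *TXNIP*, the classical MondoA-MLX target that restrains glucose uptake, had 176.0, 355.7 and 180.3 FPKM in WT and 226.2, 91.7 and 68.0 FPKM in KO. KO replicate 1 lay within the WT range, and the log2 difference of -0.996 (standard error 0.46) had a limma adjusted p of 0.319. *ARRDC4*, the paralog of *TXNIP* under the same control, was at -0.36 (standard error 0.33) and had its highest value of all 6 libraries in KO replicate 1.

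Genes known to be activated by MYC had positive mean differences, though none passed the adjusted threshold. Of 54 listed genes, 53 were in the fit, and all 53 had a positive log2 difference, with a median of 0.93 against 0.088 over all genes, of which 60.6% were positive. Without adjustment 41 of the 53 were past the threshold as higher and 0 as lower, where the shares of all genes were 10.2% and 2.33%. In 39 of them the KO lines lay above the WT lines without overlap, beside 18.3% of all genes, and in the rest the groups overlapped. Between 51 and 53 genes were positive under every alternative run, and 52 under median-of-ratios scaling. Without KO replicate 3 the median was 0.65, and 32 genes were past the unadjusted threshold as higher. In that run 539 of all 12241 genes were past it as higher and 94 as lower.

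*CAD*, the enzyme that starts pyrimidine synthesis, had 13.2, 12.0 and 18.7 FPKM in WT and 36.2, 34.25 and 72.55 FPKM in KO, a log2 difference of 1.61 (standard error 0.31). *PUS7*, a pseudouridine synthase, had 5.44, 4.29 and 6.59 FPKM in WT and 15.55, 12.35 and 26.1 FPKM in KO, a log2 difference of 1.59 (standard error 0.29). In both genes the lowest KO value was far above the highest WT value, and KO replicate 3 was highest. Neither followed *MYC* line by line. *MYC* was at like levels in WT replicate 2 and KO replicate 2, 29.25 and 29.32 FPKM, where *CAD* and *PUS7* differed. Among WT lines, replicate 2 had the most *MYC* and the least of both genes. *TFRC* and *CCND2* of the same list were instead lower in KO replicate 2 than in WT replicate 2. Whether the listed genes follow the level of *MYC* was not tested. *BOP1*, a nucleolar factor of large subunit maturation, was at 15.5 ± 3.22 FPKM in WT and 52.6 ± 27.0 FPKM in KO, and *MYBBP1A*, another nucleolar protein, at 20.3 ± 3.91 and 50.3 ± 19.5 FPKM. Their log2 differences were 1.63 and 1.24 (standard errors 0.34 and 0.27).

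*PUS7*, *CAD*, *BOP1* and *MYBBP1A* were named for the smallest p in the list, and the genes that follow as classical targets. *ODC1*, the first enzyme of polyamine synthesis, had 11.65, 11.03 and 21.4 FPKM in WT and 38.5, 18.3 and 39.3 FPKM in KO, so that KO replicate 2 lay below WT replicate 3. The nucleolar phosphoprotein gene *NPM1* overlapped in the same way, with 284.1, 315.4 and 411.5 FPKM in WT and 506.9, 391.6 and 877.2 FPKM in KO. *NCL*, which encodes nucleolin, did not overlap and had a log2 difference of 0.78 (standard error 0.26). The cell cycle kinase gene *CDK4* and the phosphatase gene *CDC25A* had log2 differences of 1.03 and 1.21 (standard errors 0.33 and 0.30), with KO replicate 2 the lowest KO line for both. For *CDK4* it had 80.9 FPKM against 75.5 FPKM in the highest WT line. The limma adjusted p was 0.285 for *NPM1* and 0.261 for *CAD*, *PUS7*, *BOP1*, *MYBBP1A*, *ODC1*, *NCL*, *CDK4* and *CDC25A*. At the low end *CCND2*, a D-type cyclin gene named after its value was seen, was at 0.06 (limma adjusted p = 0.949), with means of 15.5 FPKM in WT and 14.4 FPKM in KO. *TERT*, the catalytic subunit of telomerase and the 1 listed gene outside the fit, was under the filter in the mean and had 0.562 FPKM in KO replicate 3, against 0.0208 to 0.147 FPKM elsewhere.

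Genes known to be repressed by MYC had mostly negative differences, of smaller size. Of 13 genes, 12 were in the fit, 11 of them with a negative log2 difference and a median of -0.21. Over all tested genes 60.6% were positive. Without adjustment 2 of the 12 were past the threshold as lower and 1 as higher, beside 2.33% and 10.2% of all genes. The KO lines lay below the WT lines without overlap in 2 genes and above them in 1, beside 5.77% and 18.3% of all genes. In the rest the groups overlapped. Some negative differences were near 0, as in *CEBPD* at -0.006. *NDRG1*, at -0.14, had the higher mean FPKM in KO, 352.2 against 302.1 in WT. *CDKN2B*, which encodes the CDK inhibitor p15, had 36.6, 47.5 and 36.1 FPKM in WT and 25.05, 21.45 and 7.08 FPKM in KO, a log2 difference of -1.31 (standard error 0.43). *CDKN1A*, which encodes p21, was tightly grouped in WT at 103.8, 107.5 and 111.5 FPKM and spread in KO at 94.9, 70.05 and 38.1 FPKM, a log2 difference of -0.76 (standard error 0.30). *CDKN1B*, the gene of p27, overlapped at -0.28 (standard error 0.15). The 1 gene with a positive difference was *THBS1*, the matrix protein thrombospondin, with 69.2, 54.7 and 88.3 FPKM in WT and 102.5, 145.4 and 481.3 FPKM in KO. The number of positive genes was 1 of 12 as given, up to 4 of 12 with 1 library left out and 5 of 12 with library weights.

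The machinery around the network had list medians close to that of all genes. Of the 15 MYC cofactors, all in the fit, 4 were past the unadjusted threshold as higher and 0 as lower, beside 10.2% and 2.33% of all genes, with a median of 0.15. *RUVBL1* and *RUVBL2*, which encode paired ATPases of chromatin remodelling complexes, had log2 differences of 0.95 and 0.59 (standard errors 0.21 and 0.18). *KAT2A*, the histone acetyltransferase GCN5, was at 0.98 (standard error 0.22), and *WDR5*, an adaptor that holds MYC on chromatin, at 0.96 (standard error 0.26). None of these 4 genes overlapped between the groups. The core scaffolds *TRRAP* and *EP400* were at 0.02 and 0.15.

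Of the 16 SIN3-HDAC subunits through which the antagonists repress, 1 was past the unadjusted threshold in each direction, beside 10.2% of all genes as higher and 2.33% as lower, and the median was 0.10. *BRMS1* was at 0.52 (standard error 0.21) and *ARID4A* at -0.58 (standard error 0.21), and their groups did not overlap. *SIN3A* and *HDAC1* were at 0.01 and 0.07, and *RBBP4* and *BRMS1L* at 0.41 and 0.31. Of the 15 genes of MYC protein turnover, 2 were past the unadjusted threshold as higher, a share near the 10.2% of all genes, and 1 as lower, beside 2.33%. *USP36*, a nucleolar deubiquitinase that stabilizes MYC, was at 0.59 (standard error 0.18) and the ligase subunit gene *SKP2* at 0.64 (standard error 0.25). The ligase subunit gene *FBXO32* had 14.9, 12.1 and 11.4 FPKM in WT and 5.82, 5.45 and 0.723 FPKM in KO, a log2 difference of -1.88 (standard error 0.59), and KO replicate 3 was far below the other KO lines. *FBXW7*, the best known MYC ligase subunit, was at -0.33, and *CIP2A*, an inhibitor of MYC dephosphorylation, at 0.45. MYC protein was not measured here.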

How the data were processed

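Poly(A) RNA of 3 WT and 3 *FGFR2* KO HaCaT lines was measured with stranded libraries, grouped by the labels' genotype. Per the submitters' processing notes, reads were handled with fastp 0.20.0 and kallisto 0.46.1. The deposited values are FPKM per gene and library. How they were scaled is not given in the sources used here. Of 21493 genes, 18 Y copies of pseudoautosomal genes were left out. Depth was estimated from the steps of low values, but only 72.0% of 3471 low values were whole fragments within 0.02, so no count model was used. The filter was a mean of 0.5 FPKM. The fit used limma 3.58.1 (R 4.3.3) on log2(FPKM + 0.5), with a mean-variance trend, no further scaling and two-sided Benjamini-Hochberg adjustment. It was also run on simulated data, in which the spread was drawn separately for each gene. Variation shared between genes, as in the first principal component, was not simulated. Replicates are cell lines with 1 library each. The p-values set the group difference against the spread between libraries within groups, moderated over all genes. Variation between lines and between libraries cannot be told apart.

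The members and the gene lists were chosen with earlier results of these data known. Named were the members, *FGFR2*, the other network genes, the MondoA-MLX targets, 8 classical MYC targets, up to 4 genes per list with the smallest unadjusted p and the 5 genes most like *MYC* and *MXI1*. Further genes were named after their values were seen. Positions came from GENCODE 44 on GRCh38. Alternatives covered pseudocounts, filters, scaling, chromosome medians, empirical Bayes settings, library weights, the replicate number and each library left out.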

Additional observations from a re-analysis of the deposited data

How the results depend on the processing

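The adjusted count of 0 genes and 0 members held under the alternatives run except with library weights. That run called 1396 of 12241 genes (1160 higher and 236 lower in KO), 3 of the 9 members among them. Nothing is read from the member calls, since the set was proposed from this contrast. In that run, 89.7% of the WT weight fell on WT replicate 1. With each library left out in turn, the count stayed at 0 and the log2 difference of *MYC* over its antagonists went from 1.04 (without KO replicate 3) to 1.83 (without KO replicate 2). Replicate numbers did not pair the lines (correlations of deviations -0.206, 0.225 and 0.049), and with a replicate block 0 genes and 0 members were called, with 1336 genes higher and 426 lower at the unadjusted threshold, against 1251 and 285. Median-of-ratios scaling moved this split to 785 and 521, and leaving out KO replicate 3 to 539 and 94. Among members, *MAX* changed sign in 2 and *MNT* in 7 of 19 alternatives, and the other 7 kept their direction in all 19. With 3 lines per group, an exact permutation test of 1 gene cannot go below 0.1.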

Other observations

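The tested genes whose log2 values ran most closely with *MYC* over the 6 libraries were *TATDN2*, *EIPR1*, *DEXI*, *PDRG1* and *CHID1*, with Pearson correlations of 0.999 to 0.997. They lie on chromosomes 3, 2, 16, 20 and 11, and none was in the list of MYC-activated genes. Their amplitude was smaller than that of *MYC*. *TATDN2* had 5.58, 7.25 and 6.56 FPKM in WT and 8.85, 7.17 and 10.1 FPKM in KO replicates 1, 2 and 3, a log2 difference of 0.40 (standard error 0.19). *CHID1* had the largest difference of the 5, 0.60 (standard error 0.22). For *MXI1* the genes were *FAM110C*, *PLEKHA1*, *CLCN3*, *ATG14* and *SH3PXD2A*, with correlations of 0.995 to 0.984. Of these, *PLEKHA1* and *SH3PXD2A* lie on chromosome 10 as *MXI1* does, and *SH3PXD2A* is among its 20 neighbours. *FAM110C*, the closest, had 32.2, 34.7 and 26.0 FPKM in WT and 21.25, 20.7 and 17.7 FPKM in KO, again with a smaller amplitude than *MXI1*. The 6 libraries share the WT and KO grouping, and 12241 genes were searched, so these correlations describe likeness over 6 points only.

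The E-box CACGTG stood in the promoter windows of 23 of the 44 MYC-activated genes with a window in the RefSeq table, which is 52.3%, beside 12.5% of the tested genes with a window. The forkhead motif TGTTTAC stood in 0 of these 44. The list was written from known MYC targets, many of them recognized by this motif, so the share describes the list and not the KO lines.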
